A study of Homo sapiens with 8 samples.

Results

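Immediate early genes are transcribed within minutes of a stimulus from transcription machinery that is already in the cell. The 10 genes described here, FOS, FOSB, FOSL1, JUN, JUNB, EGR1, ATF3, NR4A1, IER3 and DUSP1, were chosen by name from 18955 genes in a single-cell RNA table, and all 10 were found. Their levels were followed in SUM159, a human cell line established from a triple-negative breast cancer, whose cells each carried a lentiviral DNA barcode. One library held cells taken before treatment (pre-treatment) and 7 held cells passaged in drug or vehicle for up to 18 passages. These 7 were DMSO vehicle, paclitaxel at 0.6 nM, palbociclib at 160 nM, JQ1 at 100 nM in 2 libraries (JQ1-A and JQ1-B), JQ1+paclitaxel and JQ1+palbociclib. JQ1 blocks the BET bromodomain proteins, palbociclib inhibits CDK4 and CDK6, kinases of the G1 phase, and paclitaxel keeps microtubules from disassembling.

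DMSO, paclitaxel, JQ1-A and JQ1+paclitaxel came from 1 experiment. Palbociclib, JQ1-B and JQ1+palbociclib came from another, which had no vehicle library here. Triplicate cultures were combined into 1 cell suspension per treatment, and for JQ1+palbociclib 1 culture had been lost during selection. Each treatment was therefore 1 library per experiment, and cells of a library were not replicates. The labelled cell line was checked against its markers. VIM, a mesenchymal filament, lay between 3279 and 4502 CPM (UMI counts scaled to the same library total), and CD44, a surface receptor of mesenchymal-like cells, between 228 and 437 CPM. Of the 7 luminal or receptor genes listed, ESR1, PGR, KRT19 and EPCAM were at or below 0.565 CPM. PTPRC, a marker of blood cells, was at or below 0.471 CPM. The 7 luminal or receptor genes summed to 8.16 to 15.5 CPM per library, and the 5 genes of other cell types that had a row summed to 11.3 to 51.3 CPM. At least 5 CPM in at least 2 libraries was reached by 1 of the 7 and by 2 of the 5, so not all of these genes were near 0. Among the 5 genes of other cell types the fibroblast marker DCN had 1.07 to 34.4 CPM, with its highest value in palbociclib. Its part in the members' levels was not tested.

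As background, FOS, FOSB and FOSL1 pair with JUN or JUNB to form AP-1, a dimeric activator of growth and stress genes. ATF3 belongs to the same leucine-zipper family and often represses. EGR1 is a zinc-finger factor, NR4A1 an orphan nuclear receptor, IER3 a stress-response gene and DUSP1 a phosphatase that switches off MAP kinases. Their promoters are driven by growth-factor, calcium and stress signals through ERK, p38 and cAMP pathways, acting on serum response factor and CREB.

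The promoters of 4 members, each called in a test given further on, are shown as examples. They hold motif matches counted after them, as do FOSB and ATF3, whose promoters are not shown. Each is the stretch from base -250 to base -11 relative to the RefSeq gene start, taken from the RefSeq GRCh38.p14 promoter table and placed on GRCh37, the build of the files, by an exact match. Capitals mark the CArG boxes in EGR1, to which serum response factor binds, the cAMP response element TGACGTCA and the TATA box TATAAA in DUSP1, and TATAAA in FOS and JUNB.

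FOS, chr14:75745281-75745520, plus strand: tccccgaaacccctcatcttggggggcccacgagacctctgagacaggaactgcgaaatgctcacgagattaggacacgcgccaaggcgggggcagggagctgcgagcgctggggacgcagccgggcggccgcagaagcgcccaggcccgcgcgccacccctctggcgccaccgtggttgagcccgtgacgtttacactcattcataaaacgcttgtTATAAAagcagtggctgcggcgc

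JUNB, chr19:12902050-12902289, plus strand: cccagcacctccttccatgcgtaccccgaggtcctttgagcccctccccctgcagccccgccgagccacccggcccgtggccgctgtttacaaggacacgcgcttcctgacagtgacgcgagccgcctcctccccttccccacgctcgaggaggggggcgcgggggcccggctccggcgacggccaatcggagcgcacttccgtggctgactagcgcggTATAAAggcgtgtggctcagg

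EGR1, chr5:137800918-137801157, plus strand: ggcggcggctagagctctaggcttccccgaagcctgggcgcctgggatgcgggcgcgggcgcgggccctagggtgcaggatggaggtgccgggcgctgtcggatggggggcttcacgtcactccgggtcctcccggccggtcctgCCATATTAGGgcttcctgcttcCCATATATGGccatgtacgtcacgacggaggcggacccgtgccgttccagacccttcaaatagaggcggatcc

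DUSP1, chr5:172198209-172198448, minus strand: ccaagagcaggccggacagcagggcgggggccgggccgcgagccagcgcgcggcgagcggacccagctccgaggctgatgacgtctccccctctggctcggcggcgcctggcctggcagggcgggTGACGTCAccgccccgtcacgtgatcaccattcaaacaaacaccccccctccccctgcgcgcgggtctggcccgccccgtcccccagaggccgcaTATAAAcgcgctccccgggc

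Of the 10 members, 8 were matched to the promoter table, and FOSL1 and IER3 were named only. EGR1 had 2 CArG boxes in this window, at bases -105 to -96 and -83 to -74, and a CArG box occurred in 1.128% of 35116 promoters. DUSP1 had a TGACGTCA element at bases -125 to -118, which 1.572% of promoters held. The TATAAA sequence was found in FOS, FOSB, JUNB and DUSP1, between bases -33 and -25, and in 1 of the 2 starts of ATF3, at bases -230 to -225. So 5 of 8 members had it, and 10.551% of all promoters did. The shares are per promoter, and ATF3 and NR4A1 each had 2. The AP-1 site TGAGTCA, or its complement TGACTCA, was found in 0 of the 8 members and in 4.106% of all promoters. Both strands were searched for each motif, no match overlapped another, and the matches are a description of letters only.

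All 10 are protein-coding genes. On GRCh37, FOS lies at chr14:75745529-75748933, FOSB at chr19:45971253-45978437, FOSL1 at chr11:65659520-65668044, JUN at chr1:59242517-59249720 and JUNB at chr19:12902300-12904129. EGR1 lies at chr5:137801168-137804992, ATF3 at chr1:212738676-212794119, NR4A1 at chr12:52416616-52453291, IER3 at chr6:30710976-30712325 and DUSP1 at chr5:172195099-172198198. FOSL1, JUN, IER3 and DUSP1 are on the minus strand.

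Libraries held 459 to 1024 cells and 10621159 to 24240835 UMIs, with a median of 20664 to 22503 UMIs per cell. The median share of mitochondrial UMIs was 3.72% to 3.96% in pre-treatment, DMSO and paclitaxel and 4.69% to 7.18% in palbociclib and the JQ1 libraries, and its part in the members' levels was not tested. For each member the summed UMIs of a library gave a CPM with a Poisson interval, which covers counting error only. Libraries of equal drug exposure differed by more than that. DMSO was above pre-treatment in 9 of 10 members, by a median of 1.43-fold (0.771 to 2.31), where 54.1% of all tested genes were higher. JQ1-A was above JQ1-B in 10 of 10 members, by a median of 1.36-fold, where 43% of all tested genes were higher. The 90th percentile of the absolute fold between these libraries over all tested genes was 1.35 for DMSO and pre-treatment and 1.27 for JQ1-A and JQ1-B.

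FOS had 26.4 CPM in pre-treatment, 60.4 in DMSO, 9.90 in paclitaxel, 37.4 in JQ1-A, 65.1 in JQ1+paclitaxel, 90.9 in palbociclib, 24.9 in JQ1-B and 28.5 in JQ1+palbociclib. Palbociclib was highest and paclitaxel lowest, 9.17-fold apart. FOSB, in the same order of libraries, had 12.9, 29.8, 5.45, 33.1, 28.1, 57.9, 17.4 and 33.3 CPM. Palbociclib was again highest and paclitaxel lowest, 10.6-fold apart.

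FOSL1 ran the other way. Its values in the same order were 70.6, 54.4, 90.7, 61.4, 57.8, 36.4, 51.9 and 58.7 CPM, with paclitaxel highest and palbociclib lowest. JUN had 38.8, 57.2, 24.8, 25.2, 34.1, 48.8, 20.8 and 22.4 CPM, with DMSO highest and JQ1-B lowest. JUNB had 109, 149, 34.1, 138, 139.7, 195, 96.4 and 87.9 CPM. It was highest in palbociclib and lowest in paclitaxel.

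EGR1 had 105, 148, 25.5, 195, 193, 228, 128 and 130.2 CPM, in the order used for FOS. Paclitaxel was the only library under 100 CPM. ATF3 had 23.0, 31.0, 7.10, 11, 11.6, 25.9, 8.72 and 11.8 CPM. Pre-treatment, DMSO and palbociclib, the libraries without JQ1 other than paclitaxel, were the 3 highest. NR4A1 had 11.1, 18.0, 2.53, 39.6, 44.2, 79.1, 28.3 and 40.2 CPM, and its paclitaxel value rested on 46 UMIs. Its highest and lowest libraries were 31.3-fold apart, the widest range of the 10. The 4 JQ1 libraries all lay above pre-treatment and DMSO for this gene.

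IER3, in the same order, had 954, 1114, 403, 942, 831, 1183, 716 and 559 CPM, and the highest and lowest were 2.93-fold apart. DUSP1 had 102, 149, 53.0, 133, 151, 241, 108 and 145 CPM. In both genes palbociclib was highest and paclitaxel lowest. Neighbours in the order of libraries often did not differ by their counting intervals: 1 neighbouring pair overlapped for IER3 and 6 for ATF3, out of 7 each.

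**Figure D1:**
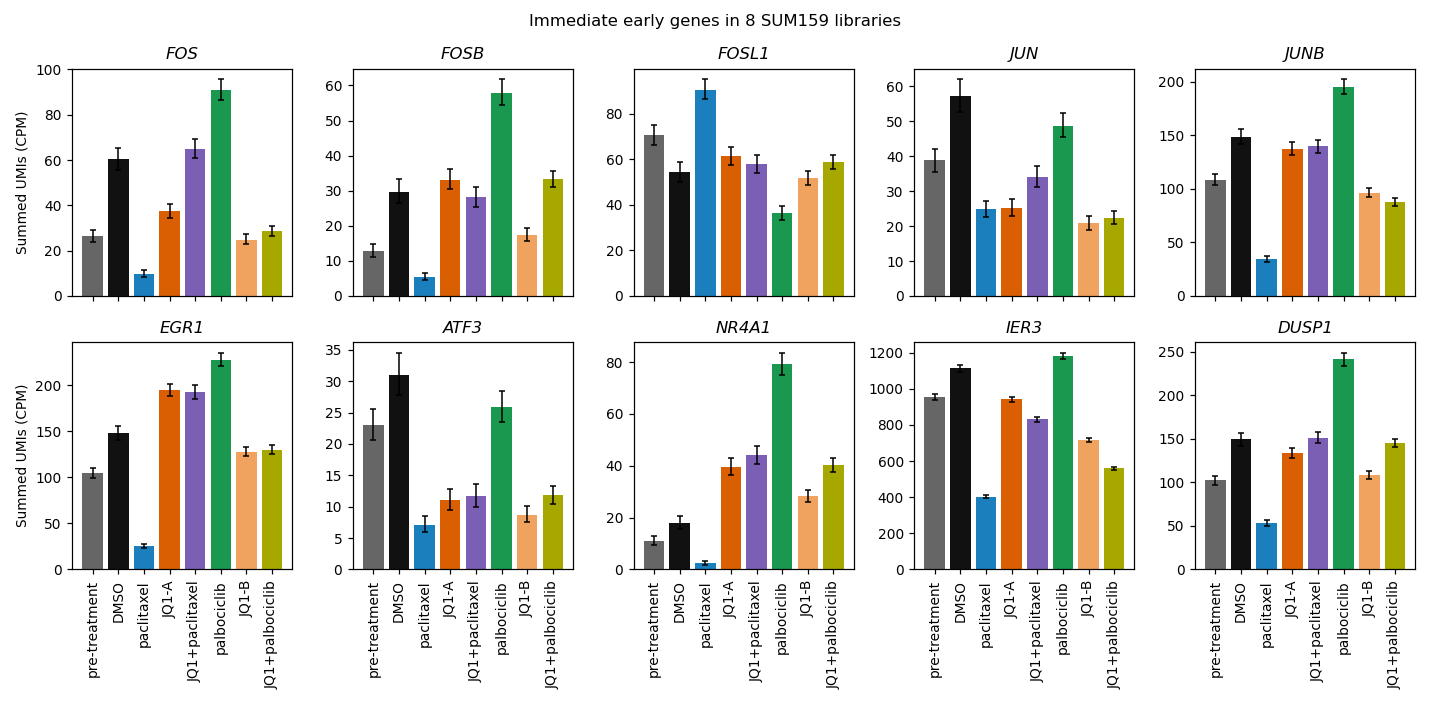
Summed UMIs as CPM (y axis from 0) of each immediate early gene in each of the 8 libraries (x axis), with exact Poisson intervals as error bars that cover counting error only. Paclitaxel was the lowest library for 8 genes, and FOSL1 was highest there.

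Across members, the paclitaxel library was lowest in 8 of 10, while it was lowest in 17.8% of tested genes, and the exceptions were FOSL1 and JUN. The palbociclib library was highest in 7 of 10, against 12.3% of tested genes, and the exceptions were FOSL1, JUN and ATF3. FOSL1 was highest in paclitaxel, as were 30.2% of tested genes, and lowest in palbociclib, as were 10.1%.

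Between single libraries, which have no replicate check, JQ1+paclitaxel was above paclitaxel in 9 of 10 members, by a median of 3.47-fold, while 34% of tested genes were higher. NR4A1 was 17.5-fold higher (counting interval 12.9 to 24.1) and EGR1 7.55-fold higher (6.84 to 8.35), and FOSL1 was at 0.637 of its paclitaxel level. JQ1+palbociclib was above palbociclib in 1 of 10 members, FOSL1, with a median ratio of 0.490, while 45.3% of tested genes were higher. Against JQ1 by itself in the same experiment, the median ratio was 1.04 for JQ1+paclitaxel and 1.14 for JQ1+palbociclib.

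The question of how each drug changed these genes was tested with edgeR's quasi-likelihood test on summed counts of 9288 genes, with Benjamini-Hochberg adjusted p-values. In a model with additive terms for the drugs and 4 residual degrees of freedom, JQ1 was called in 37.6% of genes but in 0 of 10 members, and 0 members, against 48.3% of genes, had an unadjusted p under 0.05. Their median log2 fold change with JQ1 was 0.22, where that of all genes was -0.0032, and 8 of 10 were above 0. Without the paclitaxel library the median was -0.21, without JQ1+paclitaxel -0.21, without palbociclib 0.75 and without JQ1+palbociclib 0.72. In each of these fits 2 members were called. Of all genes, 3054 of 9220, 3094 of 9263, 4190 of 9163 and 4149 of 9213 were called, in the same order. In the JQ1+paclitaxel experiment alone the median over members was 1.10, with 6 members and 2682 of 8833 genes called. Palbociclib was called in 0.28% of genes and 0 of 10 members, with 1 member, NR4A1, and 22.1% of genes at an unadjusted p under 0.05. Paclitaxel was called in 0 genes and 0 members by edgeR, where 4.25% of genes and 0 members had an unadjusted p under 0.05 and DESeq2 called 9 genes. The additive model averages each drug's effect over libraries with and without a partner drug.

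Allowing the drugs to interact, the effect of paclitaxel on 4 members differed with JQ1. The interaction of JQ1 and paclitaxel was called in 36 of 9288 genes (0.388%), and 33 of them were higher (0.355%). The 4 members among these were NR4A1, EGR1, JUNB and ATF3, and all were higher. NR4A1 had an interaction of 2.93 ± 0.45 (SE, log2), EGR1 of 2.60 ± 0.38, JUNB of 2.21 ± 0.34 and ATF3 of 2.21 ± 0.34, each with an edgeR adjusted p of 0.0327. FOS had 3.22 ± 0.58 with an adjusted p of 0.0570, and FOSL1 had -0.46 ± 0.26 with an adjusted p of 0.397. The median over the 10 was 2.18, against -0.02 over all genes, and 9 had an unadjusted p under 0.05, against 17% of all genes.

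This model had 2 residual degrees of freedom, which came from the differences between DMSO and pre-treatment and between both JQ1 libraries. The 4 libraries with no partner of equal exposure were assumed to vary to the same extent. With experiment as a term, in which pre-treatment was counted with the JQ1+paclitaxel experiment, all 4 calls were lost, at interactions of 1.96 to 2.69 and adjusted p-values of 0.209 to 0.320. The 4 calls were also lost without JQ1-A and without JQ1-B. Leaving out DMSO gave a median interaction over members of 1.72, and leaving out pre-treatment gave 2.41. The median interaction over members was 1.85 with experiment as a term, 2.45 without JQ1-A and 1.85 without JQ1-B. The experiment term rests only on the difference between JQ1-B and JQ1-A. For this interaction it therefore nearly repeats the fit without JQ1-B and is not a separate check. Each of these fits had fewer residual degrees of freedom than the reported one.

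Contrasts of the same model, added after the interaction was seen, gave the effect of paclitaxel with and without JQ1. Without JQ1 the paclitaxel library was set against pre-treatment and DMSO together, and with JQ1 against JQ1-A and JQ1-B together. Between single libraries, with no replicate check, the median ratio of members for paclitaxel was 0.229 over DMSO and 0.399 over pre-treatment. Without JQ1, 4.77% of genes were called and 7 of 10 members, all of them lower (2.67% of genes were lower). NR4A1 fell by 2.49 ± 0.37 (adjusted p = 0.0156), EGR1 fell by 2.29 ± 0.29 (adjusted p = 0.0132), and FOS fell by 2.1 ± 0.45 (adjusted p = 0.0396) on the log2 scale in the edgeR test. ATF3 fell by 1.91, JUNB by 1.90, IER3 by 1.35 and DUSP1 by 1.23 on the same scale. FOSB and JUN had values of -1.93 ± 0.53 and -0.94 ± 0.23, which did not pass, and FOSL1 had 0.54 ± 0.18 (adjusted p = 0.107). With JQ1 present, 0.0538% of genes and 0 of 10 members were called, and the member with the largest value was FOS, at 1.12 ± 0.37. The median over members was -1.91 without JQ1 and 0.31 with it, where those of all genes were 0.016 and 0.0032. For the effect without JQ1, 3 members and 20 of 9288 genes were called with experiment as a term, at a median over members of -1.91. There 10 members and 1803 genes had an unadjusted p under 0.05. With the JQ1-A or the JQ1-B library left out, fewer than 7 members were called, at a median of -1.91 in each. Neither JQ1 library enters this contrast, and its libraries count as the same experiment. The median was therefore bound to stay nearly the same in these fits and with experiment as a term. Without DMSO it was -1.33, and without pre-treatment -2.11.

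For palbociclib most members were higher, by an amount that depended on the library compared. Between single libraries, with no replicate check, the median ratio of members for palbociclib was 1.41 over DMSO and 1.98 over pre-treatment. Palbociclib was above DMSO in 7 of 10 members and above pre-treatment in 9 of 10. The median ratio of DMSO over pre-treatment was itself 1.43. The contrast without JQ1 set palbociclib against pre-treatment and DMSO together. Without JQ1, 19.6% of genes and 7 of 10 members were called, of which 6 were higher (10.2% of genes were higher) and 1, FOSL1, was lower (9.4% of genes were lower). NR4A1 rose by 2.60 ± 0.26 (adjusted p = 0.00211), FOSB by 1.60 ± 0.41 and FOS by 1.22 ± 0.37 in the edgeR test on the log2 scale. DUSP1 rose by 1.08 ± 0.21, EGR1 by 0.99 ± 0.25 and JUNB by 0.74 ± 0.23, and FOSL1 fell by 0.65 ± 0.19 on that scale. JUN, ATF3 and IER3 had values of 0.16, 0.08 and 0.33, which did not pass. With JQ1 present, 0.711% of genes and 0 of 10 members were called. The median over members was 0.86 without JQ1 and -0.037 with it, where those of all genes were 0.014 and 0.0044. The interaction of JQ1 and palbociclib was called in 0.0108% of genes and 0 of 10 members, 7 members and 17% of genes had an unadjusted p under 0.05, and NR4A1 had -2.39 ± 0.37 (adjusted p = 0.0883). Palbociclib came from another experiment than DMSO. With experiment as a term, 0 members and 4 of 9288 genes were called for its effect without JQ1, at a median over members of 1.35. There 7 members and 1994 genes had an unadjusted p under 0.05. When the JQ1-A or the JQ1-B library was left out, fewer than 7 members were called, at medians of 0.87 and 0.86. Neither JQ1 library enters this contrast, so its median was bound to stay nearly the same. It was 1.11 without DMSO and 0.63 without pre-treatment.

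**Figure D2:**
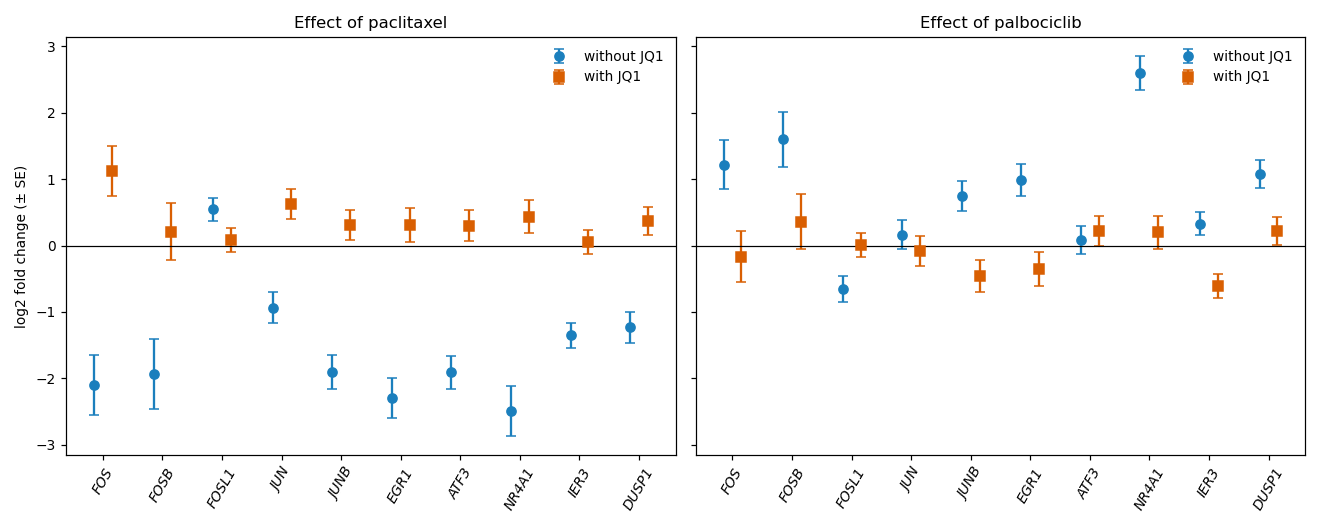
Fitted log2 fold change (y axis, ± SE) of each immediate early gene for paclitaxel (left) and palbociclib (right), without JQ1 (circles) and with JQ1 (squares), from the interaction model over 8 libraries. The squares ran from 0.06 for IER3 to 1.12 for FOS with paclitaxel and from -0.61 for IER3 to 0.36 for FOSB with palbociclib, and none of them was called, while NR4A1 without JQ1 was -2.49 for paclitaxel and 2.60 for palbociclib.

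JQ1 alone, tested as JQ1-A and JQ1-B against pre-treatment and DMSO in the same model, was called in 40.4% of genes and in 4 of 10 members, 2 higher (19.5% of genes) and 2 lower (20.9% of genes). NR4A1 rose by 1.47 ± 0.23 (adjusted p = 0.00139) and EGR1 rose by 0.59 ± 0.21 (adjusted p = 0.0480), while ATF3 fell by 1.22 ± 0.19 (adjusted p = 0.00129) and JUN fell by 0.83 ± 0.19 (adjusted p = 0.00715) on the log2 scale in edgeR. For EGR1 the 2 groups overlapped, with 128 CPM in JQ1-B and 148 CPM in DMSO. For the other 6 members the fitted values lay between -0.24 and 0.49 and did not pass. DESeq2 called 3 members and 2120 of 9288 genes, and at equal UMIs 3 members and 3424 of 9287 genes were called. With 1 library of equal exposure left out at a time, NR4A1 ran from 1.15 to 1.83 and EGR1 from 0.23 to 0.87. ATF3 then ran from -1.43 to -1.01 and JUN from -1.08 to -0.53.

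Related genes of the same response were examined as a fixed list of 40, of which 37 were tested. With paclitaxel and no JQ1, 9 of them fell (2.67% of all genes) and 0 rose, and 34 of 37 values were below 0, with a median of -0.68. Among those that fell, TNFAIP3, an inhibitor of NF-kB signalling, fell by 2.50 ± 0.40, the matrix-associated protein CYR61 by 1.5 ± 0.24, the early gene IER2 by 1.33 ± 0.31 and ZFP36, which promotes decay of cytokine mRNA, by 1.31 ± 0.29 on the log2 scale. With palbociclib and no JQ1, 12 rose (10.2% of all genes) and 1 fell, GADD45A (9.4%), with a median over the list of 0.46, and the 4 with the largest values were EGR3 at 2.82 ± 0.54, BTG2 at 2.21 ± 0.51, NR4A2 at 1.92 ± 0.32 and ZFP36 at 1.19 ± 0.26. With JQ1 in the additive model, 7 rose and 2 fell (17.8% and 19.7% of all genes), with a median of 0.40, among them CTGF at 1.27 ± 0.18, SOCS3 at -1.38 ± 0.37, TRIB1 at 1.03 ± 0.33 and NFKBIA at -0.99 ± 0.29.

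Of 17 tested AP-1 and related leucine-zipper genes, 1 rose and 4 fell with JQ1, where 17.8% of all genes rose and 19.7% fell. JUND rose by 1.18 ± 0.25, and BATF3 fell by 2.61 ± 0.32, ATF1 by 0.54 and CREM by 0.49 on the log2 scale. JUND had a paclitaxel interaction of 1.39 ± 0.22 (edgeR adjusted p = 0.0332). Of 17 tested DUSP and ERK feedback genes, 6 rose and 3 fell with JQ1 (17.8% and 19.7% of all genes). Among them were DUSP4 at 1.0 ± 0.14, SPRY2 at 0.92, DUSP6 at 0.91 and DUSP2 at -1.16. Of 24 tested upstream kinases and factors, 3 rose and 4 fell with JQ1 (17.8% and 19.7% of all genes). Among them were MAPK3, the ERK1 kinase, at -0.90, MAP2K7 at 0.59, ELK1 at -0.42 and ELK3 at 0.40.

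Of 16 tested AP-1 target genes, 4 rose and 3 fell with JQ1 (17.8% and 19.7% of all genes). Among them were SPHK1 at -1.54, CDKN1A at 1.07 and PLAUR at -0.82. The interaction of JQ1 and paclitaxel was called for 3 of them: the chemokine IL8 at 3.81 ± 0.34 (edgeR adjusted p = 0.00597), the cytokine IL6 at 2.55 ± 0.32 (adjusted p = 0.0171) and CCND1, cyclin D1, at -1.28 ± 0.20 (adjusted p = 0.0327). Of 15 BET proteins and elongation factors, 6 rose and 1 fell with JQ1 (17.8% and 19.7% of all genes). HEXIM1 was at 1.02 ± 0.11, CCNT1 at 0.59, AFF4 at 0.56 and BRD2 at 0.53.

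Heat shock genes, which are known to respond to stress during cell handling, were summed beside the members. The 10 members summed to 656 CPM in paclitaxel, 1453 in pre-treatment, 1810.5 in DMSO, 2186 in palbociclib and 1117 to 1615 in the 4 JQ1 libraries. The 15 heat shock genes summed to 6227 CPM in paclitaxel, 4773 in pre-treatment, 4998 in DMSO, 3110 in palbociclib and 3059 to 3540 in the 4 JQ1 libraries. Of 14 tested, 3 rose and 1 fell, HSPB1, with paclitaxel and no JQ1, where 4.77% of all genes were called in either direction. With palbociclib and no JQ1, 6 fell, where 9.4% of all genes fell, and 0 rose. With JQ1 in the additive model, 1 rose, DNAJB4, and 4 fell, led by HSPB8 at -1.07, where 17.8% of all genes rose and 19.7% fell. Their part in the members' levels was not tested.

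To see whether the levels came from few or many cells, cells passing the study filter of 1 to 15% mitochondrial UMIs and at least 2000 genes were thinned to 10000 UMIs each, which left 5487 of 5738 cells. Shares of cells with at least 1 UMI are of this thinned count, and no cell type lacking these genes was available to give a background share. NR4A1 had a UMI in 2.32% of paclitaxel cells (exact interval 1.36 to 3.69), 9.09% of pre-treatment, 14.2% of DMSO and 47.1% of palbociclib cells (43.3 to 51.0). Without thinning the paclitaxel share was 4.86%. In the JQ1 libraries the shares were 20.5% to 27.4%, all above pre-treatment and DMSO.

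EGR1 had a UMI in 18.2% of paclitaxel, 53.2% of pre-treatment, 69.4% of DMSO and 82.9% of palbociclib cells. DUSP1 ran from 33.1% in paclitaxel to 84.3% in palbociclib, and FOS from 7.10% to 45.8%. FOSL1 ran the other way, from 54.8% in paclitaxel to 27.6% in palbociclib. IER3 was in 89.5% of paclitaxel cells and in 95.4% to 98.3% of cells elsewhere.

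**Figure D3:**
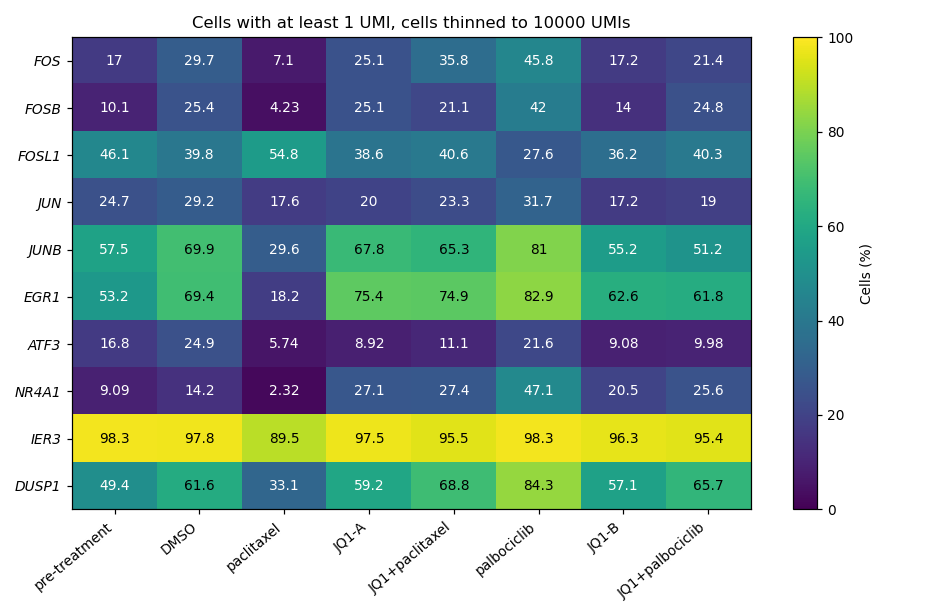
Percent of cells with at least 1 UMI for each immediate early gene (rows) in each library (columns), after thinning every cell to 10000 UMIs. For NR4A1 the shares ran from 2.32% in paclitaxel to 47.1% in palbociclib.

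The number of members detected per cell had a median of 3 in paclitaxel, 6 in palbociclib and 4 to 5 in the other 6 libraries. At least 8 members were detected in 0.273% of paclitaxel cells, 11.6% of palbociclib cells and 1.31% to 5.28% of cells elsewhere. At most 2 were detected in 49.3% of paclitaxel cells and 3.32% of palbociclib cells.

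Co-expression across cells of a library was weak. The median Pearson r of log1p thinned counts over 45 pairs of members ran from 0.0632 in paclitaxel to 0.110 in JQ1+paclitaxel, where pairs over all well-detected genes had medians of 0.00250 to 0.00806. From 8 of the 45 pairs in DMSO to 18 in pre-treatment lay above the 99th percentile of all pairs, which was 0.116 to 0.152. The well-detected genes had to reach a mean UMI per cell that some members did not, such as NR4A1 in paclitaxel, at 0.023. These correlations share library and depth and are given as a description. EGR1 and IER3 had the highest mean over 8 libraries, 0.262 (0.210 to 0.360). JUNB and IER3 had 0.197, FOS and FOSB 0.195, and FOS and DUSP1 0.192. FOS and FOSL1 had the lowest, -0.035, and pairs with FOSL1 had medians of -0.0537 to 0.0301 where pairs without it had 0.0879 to 0.128.

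**Figure D4:**
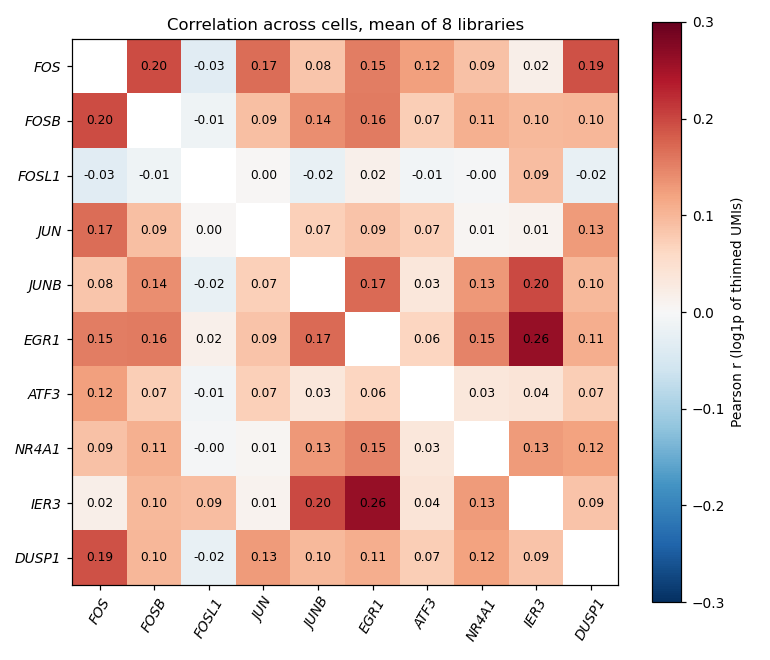
Mean over 8 libraries of the Pearson correlation across cells (colour, from -0.3 to 0.3) for each pair of immediate early genes. EGR1 and IER3 had the highest mean, 0.262, and pairs with FOSL1 lay near 0.

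Among 4421 well-detected genes, with members passed over, those most like each member across cells included early genes of the list. ZFP36 came first for FOS (mean r = 0.210), FOSB (0.131) and DUSP1 (0.164), and IER2 first for JUN (0.156), JUNB (0.206) and EGR1 (0.201). IER3 was most like the chemokines IL8 (0.376) and CXCL2 (0.342), NR4A1 most like IL6 (0.148), FOSL1 most like TNFRSF12A (0.149) and ATF3 most like KLF6 (0.0844). Second places were mixed. They held the listed genes IER2 for FOS (0.137) and KLF6 for JUN (0.145), but also MT-CO1 for FOSB (0.127) and S100A4 for ATF3 (0.0699). Across the 8 libraries, the gene most like EGR1 was MAOA (r of log2(CPM + 1) = 0.990), that for NR4A1 was CES2 (0.980), that for FOS was STK19 (0.981) and that for DUSP1 was FOXO1 (0.972). With 8 libraries and 9288 genes compared, values of this size are a description only.

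Cell cycle phase, called from marker lists in each library by itself, gave the same extremes for most members. Paclitaxel was lowest for 7 of 10 members among S-phase cells and 8 of 10 among G2/M cells, and palbociclib highest for 7 and 6. EGR1 had 28.8 CPM in S-phase cells of paclitaxel and 219 in those of palbociclib. Only 23 paclitaxel cells were called G1, so its G1 values rest on few cells. FOSL1 was lower in G1 than in G2/M in 8 of 8 libraries, with a median ratio of 0.806.

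**Figure D5:**
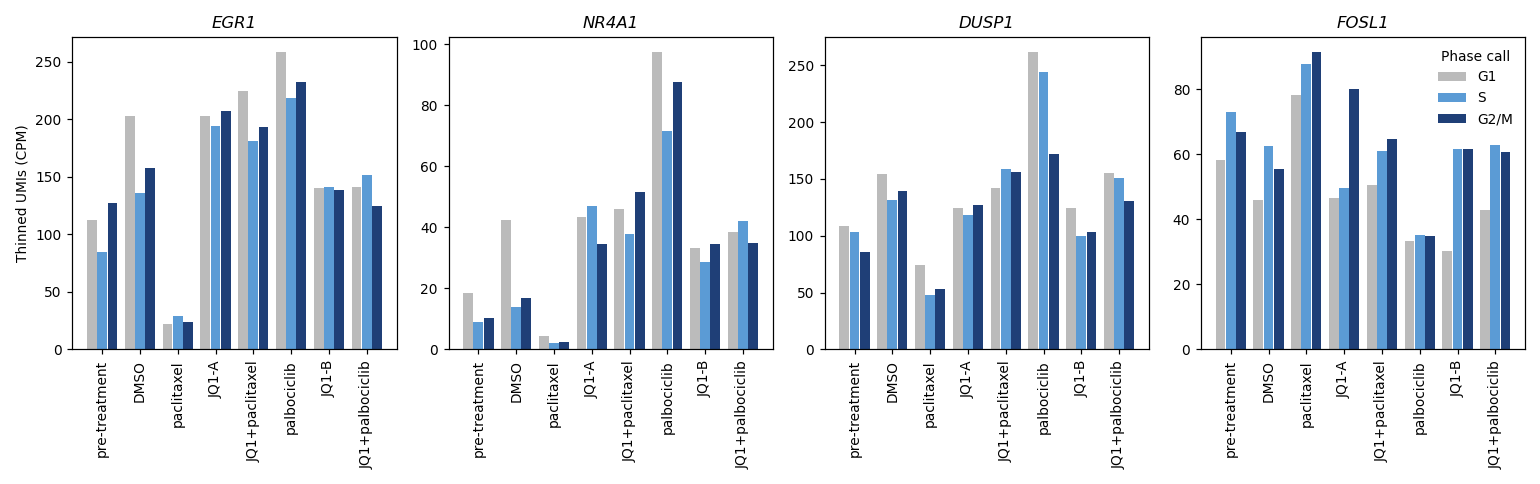
Thinned UMIs as CPM (y axis from 0) of EGR1, NR4A1, DUSP1 and FOSL1 by called phase (bars) in each library (x axis). For EGR1, S-phase cells had 28.8 CPM in paclitaxel and 219 CPM in palbociclib; the paclitaxel G1 bars rest on 23 cells.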

How the data were processed

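The authors made 10x Genomics Chromium 3' v2 libraries, aligned reads to hg19 and counted them with Cell Ranger. The deposited table holds raw UMI counts per gene and cell, and a second deposited file gives each cell's library, UMI count and gene count. The 10 members and all gene lists were chosen with earlier results of these data known. Counts were summed per library. Genes with at least 5 CPM in at least 2 libraries were tested with edgeR 4.0.16 (R 4.3.3, TMM) in 2 models over all 8 libraries, 1 additive and 1 with interactions. Calls were made at an adjusted p (Benjamini-Hochberg) below 0.05. Labels name 1 library per treatment, so p-values measure the spread between libraries, not cultures. DESeq2 1.42.0 and other settings were alternatives. The fit was tested on simulated data with 200 changed genes. Named genes were all members, up to 4 genes per list called for JQ1 with the largest values and up to 4 called for another term, and the genes most like each member. Genes of the contrasts, and GADD45A, were named after values were seen. Phases were called with Seurat's lists, and doublets were not called. In the cell files 13 barcode sequences occurred in more than 1 library. MMP9, MMP10, CD3E, LYZ, PECAM1 and VWF were not analysed here. For 1 gene of the lists, values are not reported here.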

Additional observations from a re-analysis of the deposited data

Results flagged for a closer look

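DUSP1 in the palbociclib library stood apart from the other 5 libraries without paclitaxel: 241 CPM against 149 CPM in the next highest, a gap of 0.662 of the group's range. Of 40 groups examined, 1 was flagged in this way, where the 95% critical value of Dixon's test, which set the limit, lets chance flag about 1 in 20. The effect of paclitaxel differed with JQ1 for NR4A1 (interaction 2.93, log2), EGR1 (2.60), JUNB (2.21) and ATF3 (2.21), each at an edgeR adjusted p of 0.0327, and none of these calls was kept with experiment as a term.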

How the results depend on the processing

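With experiment as a term, 2043 genes were called for JQ1, 1786 for JQ1 without a partner drug, 1 for JQ1 by paclitaxel (0 members), 0 for JQ1 by palbociclib, 1 for paclitaxel with JQ1, 20 for paclitaxel without JQ1 (3 members), 0 for palbociclib, 3 for palbociclib with JQ1 and 4 for palbociclib without JQ1 (0 members). DESeq2 called 2120 for JQ1 without a partner drug, 80 for JQ1 by paclitaxel (7 members), 33 for JQ1 by palbociclib (1 member), 9 for paclitaxel, 13 for paclitaxel with JQ1, 244 for paclitaxel without JQ1, 515 for palbociclib and 807 for palbociclib without JQ1 (3 members). With no CPM filter the counts were 724 for JQ1 by paclitaxel (9 members), 689 for JQ1 by palbociclib (7 members), 2 for paclitaxel, 119 for paclitaxel with JQ1 (1 member), 1694 for paclitaxel without JQ1, 205 for palbociclib, 675 for palbociclib with JQ1 (1 member) and 2836 for palbociclib without JQ1. Without cells above the 95th percentile of UMIs they were 80 for JQ1 by paclitaxel, 4 for JQ1 by palbociclib and 12 for paclitaxel with JQ1. At equal UMIs they were 246 for paclitaxel without JQ1, 42 for palbociclib and 34 for palbociclib with JQ1. The 3 matched pairs called 361 genes for JQ1. The JQ1+paclitaxel experiment alone called 6 members and 2682 of 8833 genes for JQ1, and 2 genes for paclitaxel. The cause of these shifts was not tested. RLE size factors and the study's cell filter left each count of genes or members within 1.5 times of the reported one. The median co-expression was 0.0727 by Spearman and 0.0523 at 5000 UMIs.

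Signs turned with experiment as a term for FOS (0.0450) and IER3 (0.1112) under JQ1 without a partner drug, ATF3 under JQ1 by palbociclib (-0.0411, and -0.1821 at equal UMIs), FOSB (-0.1993), FOSL1 (-0.0483) and IER3 (-0.1425) under paclitaxel with JQ1, and FOS (0.1685) and JUN (0.0764) under palbociclib with JQ1. None of these was called in the reported fit.

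For the interactions and contrasts only pre-treatment, DMSO, JQ1-A and JQ1-B could be left out, since each other library alone defines a term. Leaving out 1 library at a time gave 1760 to 4190 genes and 0 to 2 members for JQ1, 1236 to 4097 and 3 to 8 for JQ1 without a partner drug, 1 to 1141 and 0 to 10 for JQ1 by paclitaxel, 0 to 1112 and 0 to 8 for JQ1 by palbociclib, 0 to 4 genes for paclitaxel, 1 to 155 and 0 to 2 for paclitaxel with JQ1, 19 to 1657 and 3 to 10 for paclitaxel without JQ1, 0 to 938 and 0 to 1 for palbociclib, 2 to 978 and 0 to 2 for palbociclib with JQ1, and 589 to 2835 and 3 to 9 for palbociclib without JQ1. Members that turned sign then ranged as follows. Under JQ1 without a partner drug, FOS ran from -0.7257 to 0.4570, FOSB from -0.0558 to 1.1841, FOSL1 from -0.0950 to 0.2907, JUNB from -0.1994 to 0.3448, IER3 from -0.3144 to 0.1120 and DUSP1 from -0.0722 to 0.4620. Under JQ1 by palbociclib, JUN ran from -0.5411 to 0.0092 and ATF3 from -0.0818 to 0.3383. Under paclitaxel with JQ1, FOSB ran from -0.1992 to 0.7580, FOSL1 from -0.0482 to 0.2248 and IER3 from -0.1424 to 0.2847. Under palbociclib with JQ1, FOS ran from -0.4509 to 0.1681, FOSB from -0.0524 to 0.9043, FOSL1 from -0.1237 to 0.1488, JUN from -0.2303 to 0.0760 and NR4A1 from -0.0391 to 0.4785. Under palbociclib without JQ1, JUN ran from -0.0908 to 0.4593 and ATF3 from -0.1164 to 0.3032. The labels give 1 library per treatment and no replicate numbers, so no pairing by number was made. Depth limited NR4A1 most, with 46 UMIs in paclitaxel.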
